A study of Mus musculus with 12 samples.

Results

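Collagen and laminin chains are the proteins from which the fibrils and basement membranes of the lung are built. Genes were taken by name, Col followed by a type and chain number or Lama, Lamb or Lamc followed by a number, with 1 probe set per gene, the one with the highest mean over the 12 arrays. This gave 53 of the 21759 genes measured, of which 52 are described, 42 collagen and 10 laminin chains. These fell into 11 fibrillar chains, 18 basement membrane chains (8 collagens and 10 laminins) and 23 other chains. Of the 52, 22 had a mean log2 signal below 4.75, and for these chains a difference is hard to see. This cutoff is the lowest of the array medians over all 35556 probe sets, with or without a gene symbol. Every chain was tested, dim or not.

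Lung RNA of female mice on a C57BL/6 background, 10 weeks old, was hybridised to 12 Affymetrix mouse gene arrays, and the labels name the left lung as its source. In db/db mice, which become obese, the leptin receptor has no long form. There were 4 arrays of db/db mice that had isotype control antibody and breathed air (here "air"), 4 of db/db mice that had the isotype control and breathed O3 ("O3"), 3 of db/db mice that had anti-IL17, an antibody to the cytokine IL-17A, before O3 (replicates 1, 2 and 4, "anti-IL-17A"), and 1 of a wild-type (WT) mouse with isotype control and O3. Exposure was to 2 ppm O3 for 3 h, with lungs studied 24 h later. WT mice in air and antibody without O3 were not analysed here. No label says whether the arrays of a group are separate animals, and p-values then measure only the spread between these arrays. In whole lung RNA, fewer cells of a type and less RNA per cell cannot be told apart.

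A collagen is a trimer of alpha chains wound into a triple helix, and a chain without its partners is usually not secreted. Fibrillar collagens (types I, III and V in the lung) give tissue its tensile strength, while basement membranes, the sheets under epithelium and around vessels, muscle and nerves, join a network of laminin trimers (1 alpha, 1 beta and 1 gamma chain) to a network of type IV collagen. The blood-gas barrier of the alveolus contains such a sheet, shared by the epithelium and the capillary, and repair of an injured epithelium takes place on it.

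The arrays differed in ways that the groups do not explain. Anti-IL-17A replicate 1 stood apart, with a mean correlation of 0.947 with the other arrays against 0.973 to 0.983 for the rest, and was the highest of the 12 arrays for 33.4% of all genes. Anti-IL-17A replicate 2 lay within the range of the air arrays for 54.7% of all genes. The labels of both arrays were used as given. Whether they are right was not tested, and an error in either would change what each comparison with the antibody means. Ucp1, a marker of brown fat, had a log2 signal of 10.12 to 10.53 in air replicate 3, O3 replicate 4 and anti-IL-17A replicate 1 and at most 5.08 in the other arrays. The 7 markers of alveolar type 2 cells had a mean log2 signal of 10.29 to 10.54 in every array. Because the spread of the anti-IL-17A group enters the limma fit to all 12 arrays, results are given from that fit and, where they differ, from a fit of only the groups compared.

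In the fit to all 12 arrays none of the 52 chains passed the threshold (Benjamini-Hochberg adjusted p under 0.05 over all genes) between O3 and air, against a background of 1.06% of all genes (230 genes). At an unadjusted p under 0.05 there were 8 chains, or 15.4%, against 15.1% of all genes. With only the 8 arrays of both groups fitted, 6 chains passed, or 11.5%, against 7.84% of all genes. Col12a1, Col6a1, Col6a2, Col4a2 and Lama5 rose (5 chains, 9.62%, against 4.89% of all genes) and Col14a1 fell (1.92%, against 2.96%). The estimate of each difference is the same in both fits, and the spread is not. The latter fit was repeated with 1 array at a time dropped, and Col12a1 passed each time. Without O3 replicate 2, 7 chains passed (13.5%, against 12.4% of all genes), and without O3 replicate 4 there were 5 (9.62%, against 5.69%). There were 2 chains (3.85%) without O3 replicate 1 (4.79% of all genes), O3 replicate 3 (3.48%) or air replicate 3 (5.35%). Col12a1 was the 1 chain called (1.92%) without air replicate 1 (3.77% of all genes), air replicate 2 (3.79%) or air replicate 4 (3.88%). In the 12-array fit no chain passed without anti-IL-17A replicate 1, where 3.83% of all genes did, and Col12a1 passed without anti-IL-17A replicate 2 (1.92% of the chains, against 4.15% of all genes). In the 12-array fit 0 to 14 genes in all, and no chain, passed when any 1 air or O3 array was left out. All 4 O3 arrays lay above all 4 air arrays for 6 chains, 11.5% against 8.78% of all genes, and below them for 3 chains, 5.77% against 6.65%. The median difference over the 52 chains was -0.04 on the log2 scale, against 0.00 for all genes, and the differences ran from -0.41 to 0.81. By class the median was -0.06 for the fibrillar chains, 0.07 for the basement membrane chains and -0.10 for the other chains. Among the laminins 8 of 10 differences were above 0, and among the collagens 14 of 42, where 50.8% of all genes were above 0.

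**Figure D1:**
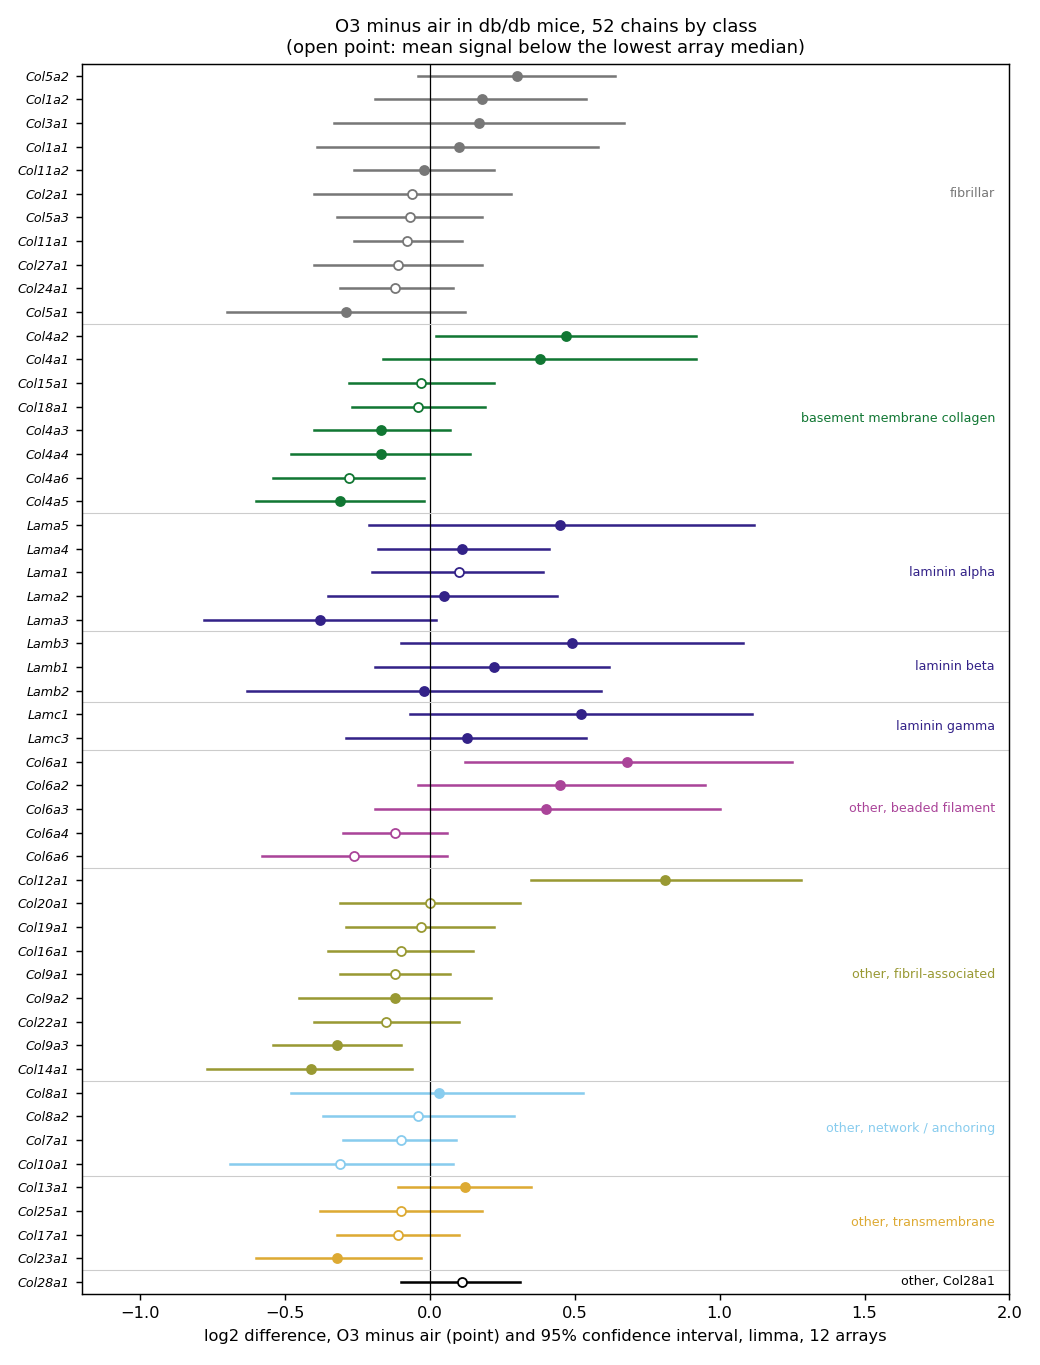
O3 minus air in db/db mice for each of 52 chains. The x axis gives the log2 difference with its 95% confidence interval from the limma fit to 12 arrays, the y axis lists the chains by class, and open points are chains whose mean lies below the lowest array median. The intervals of Col12a1 (0.35 to 1.28), Col6a1 (0.12 to 1.25) and Col4a2 (0.02 to 0.92) lie above 0. Those of Col14a1, Col9a3, Col23a1, Col4a5 and Col4a6 lie below 0, and those of all 11 fibrillar chains include 0.

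Lama3 and Lamb3 encode chains of the laminin that anchors epithelia through hemidesmosomes, and their differences between O3 and air had opposite signs. Lamb3, the beta chain, had log2 signals of 5.75, 5.47, 5.98 and 5.68 in air and 6.32, 5.70, 6.37 and 6.46 after O3. Of the O3 arrays 3 were above the air arrays and replicate 2 was within their range, and the difference was 0.49 (SE 0.27, adjusted p = 0.43). Lama3, the alpha chain, went the other way, with 7.86, 7.48, 7.80 and 7.81 in air and 7.49, 7.09, 7.78 and 7.05 after O3, a difference of -0.38 (SE 0.18, adjusted p = 0.35) with overlapping arrays. Neither passed the threshold in the fit of both groups (adjusted p = 0.13 and 0.21). Within an array, Lamb3 minus Lama3 was -2.12 to -1.82 in air and -1.42 to -0.59 after O3, a shift of 0.87, while in the anti-IL-17A arrays it was -1.75 to -0.73 and in the WT array -1.53. Such pairs were chosen with the values known, so that the shift is a description. Probe sets differ in efficiency, and the sign of such a difference within 1 array has no meaning of its own.

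Lamc1 and Lama5 belong to the laminins found widely in basement membranes, including that of the alveolus. Lamc1, the gamma chain of most laminins, had log2 signals of 8.25, 7.96, 8.38 and 8.16 in air and 8.80, 8.41, 9.02 and 8.60 after O3. No O3 array fell among the air arrays, although O3 replicate 2 was only just above the highest of them. The difference was 0.52 (SE 0.26, adjusted p = 0.39, and 0.060 with only both groups fitted). Lama5, the alpha chain of the main laminin of the adult alveolar basement membrane, had 5.16, 5.21, 5.30 and 5.16 in air and 5.98, 5.43, 5.61 and 5.62 after O3. Every O3 array was above every air array, and the air arrays were close together. The difference was 0.45 (SE 0.30, adjusted p = 0.52), and the adjusted p was 0.046 in the fit of both groups, where the SE was 0.11. In anti-IL-17A replicate 1 the signal of Lama5 was 6.98 and in replicate 2 it was 5.18, a gap that widens the SE of the 12-array fit.

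The remaining laminins changed less. Lamb1, the beta chain that pairs with Lamc1, differed by 0.22 (SE 0.18, adjusted p = 0.64), and Lama4, the alpha chain of vessel basement membranes, by 0.11 (SE 0.13, adjusted p = 0.75). For Lama2, the alpha chain of muscle basement membranes, the difference was 0.05 (SE 0.18), and for Lamb2 it was -0.02 (SE 0.28). Lamc3 (0.13) and Lama1 (0.10, the 1 laminin chain below the lowest array median) complete the 10. None of these 6 passed the threshold in either fit.

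**Figure D2:**
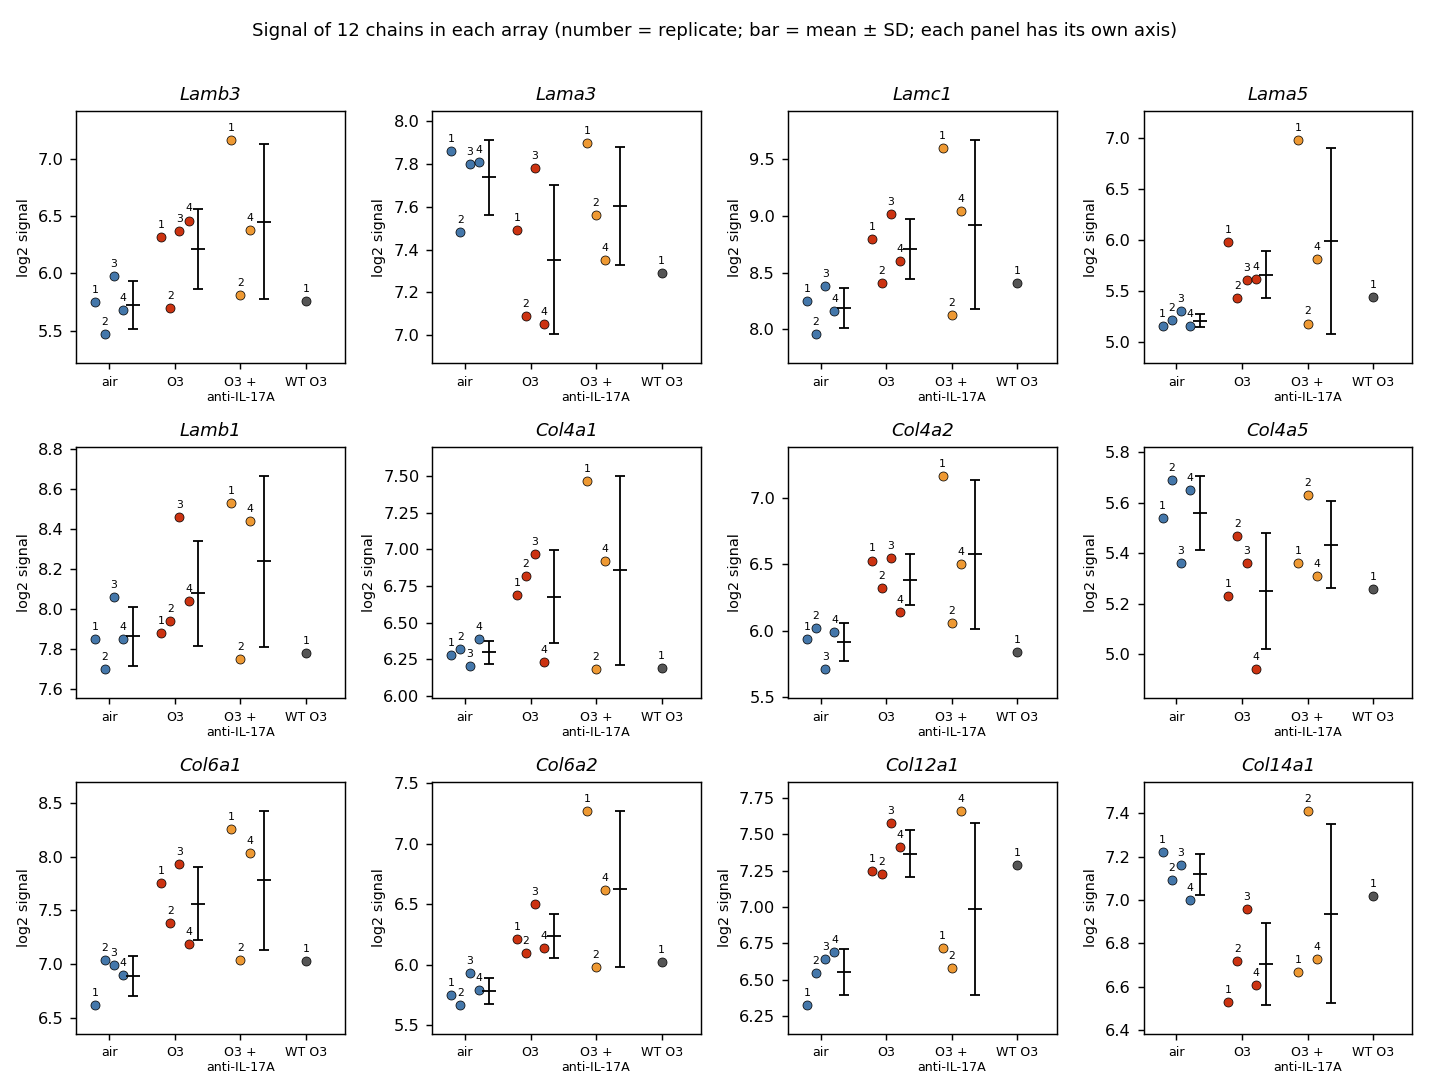
Log2 signal of 12 chains in every array. Each panel has its own y axis, points are arrays numbered by replicate, and the bar beside each group is its mean with SD (air and O3 n = 4, anti-IL-17A n = 3, WT 1 array). For Col12a1 the O3 arrays lie at 7.23 to 7.58 and the air arrays at 6.33 to 6.69, and anti-IL-17A replicate 2 lies near the air arrays for Col12a1 (6.58), Lama5 (5.18) and Lamc1 (8.13).

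Type IV collagen has 6 chains that form 3 kinds of trimer. The products of Col4a1 and Col4a2 make the network found in nearly all basement membranes, those of Col4a3, Col4a4 and Col4a5 that of the alveolus and the kidney filter, and Col4a5 and Col4a6 that around smooth muscle. Col4a2 had log2 signals of 5.94, 6.02, 5.71 and 5.99 in air and 6.53, 6.32, 6.55 and 6.14 after O3. All O3 arrays were above all air arrays, with O3 replicate 4 the closest. The difference was 0.47 (SE 0.20, adjusted p = 0.31), and the adjusted p was 0.041 with only both groups fitted. Its partner Col4a1 had 6.28, 6.32, 6.20 and 6.39 in air and 6.69, 6.82, 6.97 and 6.23 after O3. Of the O3 arrays 3 were above the air arrays and replicate 4 was within their range, and the difference was 0.38 (SE 0.24, adjusted p = 0.51, and 0.16 with only both groups fitted).

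The 4 other type IV chains had differences below 0, and none passed the threshold in either fit. Col4a5 had log2 signals of 5.54, 5.69, 5.36 and 5.65 in air and 5.23, 5.47, 5.36 and 4.94 after O3, a difference of -0.31 (SE 0.13, adjusted p = 0.29). Col4a6, on the same locus, had 4.69, 4.84, 4.49 and 4.72 in air and 4.58, 4.47, 4.37 and 4.19 after O3, a difference of -0.28 (SE 0.12, adjusted p = 0.29). In both genes O3 replicate 4 was the lowest array and another O3 array was within the air range. For Col4a3 and Col4a4 the difference was -0.17 in each (adjusted p = 0.50 and 0.63). Within an array, Col4a2 minus Col4a5 was 0.33 to 0.40 in air and 0.85 to 1.29 after O3, and Col4a2 minus Col4a6 was 1.18 to 1.27 in air and 1.85 to 2.18 after O3, with no overlap. Col4a1 minus Col4a2, which shared their direction, was 0.29 to 0.50 in air and 0.09 to 0.50 after O3. As for the laminin pairs, this describes values already seen and no test was made. The other basement membrane collagens, Col15a1 and Col18a1 (the source of endostatin), differed by -0.03 and -0.04, both with a mean below the lowest array median.

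The type IV genes lie in head-to-head pairs, and their start regions are shown because the members of a pair moved together across the arrays. Windows of 300 bases, from 250 before to 50 after each start, are from RefSeq on GRCm38.p6. Those of 39 of the 52 chains were used here, and this is not a count of the chains for which a window exists. Col4a1 (chr8:11312777-11313076, minus strand) and Col4a2 (chr8:11312555-11312854, plus strand) start 21 bases apart on opposite strands, with the first 22 bases of both transcripts overlapping. Capitals mark the 78 bases that both windows hold.
Col4a1: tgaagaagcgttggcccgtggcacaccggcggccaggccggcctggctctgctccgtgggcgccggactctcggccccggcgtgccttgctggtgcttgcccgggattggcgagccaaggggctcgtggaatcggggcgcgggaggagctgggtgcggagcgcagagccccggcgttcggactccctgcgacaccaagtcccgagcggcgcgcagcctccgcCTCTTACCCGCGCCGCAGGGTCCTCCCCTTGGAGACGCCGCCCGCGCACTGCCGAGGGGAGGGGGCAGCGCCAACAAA
Col4a2: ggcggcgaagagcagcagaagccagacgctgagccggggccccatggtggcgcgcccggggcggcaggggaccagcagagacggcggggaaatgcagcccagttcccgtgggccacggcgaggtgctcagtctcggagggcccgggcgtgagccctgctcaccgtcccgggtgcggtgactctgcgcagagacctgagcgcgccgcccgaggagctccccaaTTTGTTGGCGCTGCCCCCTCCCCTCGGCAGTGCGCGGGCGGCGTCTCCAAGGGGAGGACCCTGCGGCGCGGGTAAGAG
The starts of Col4a5 (chrX:141475169-141475468, plus strand) and Col4a6 (chrX:141474027-141474326, minus strand) are 1343 bases apart and their windows do not meet. Here capitals mark GGGCGG, the GC box, read on either strand.
Col4a5: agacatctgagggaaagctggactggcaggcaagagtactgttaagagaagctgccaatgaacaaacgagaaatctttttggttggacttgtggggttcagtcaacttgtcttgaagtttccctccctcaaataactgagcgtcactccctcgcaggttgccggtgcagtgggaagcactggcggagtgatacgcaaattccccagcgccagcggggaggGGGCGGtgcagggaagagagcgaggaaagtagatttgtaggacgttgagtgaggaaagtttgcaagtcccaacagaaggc
Col4a6: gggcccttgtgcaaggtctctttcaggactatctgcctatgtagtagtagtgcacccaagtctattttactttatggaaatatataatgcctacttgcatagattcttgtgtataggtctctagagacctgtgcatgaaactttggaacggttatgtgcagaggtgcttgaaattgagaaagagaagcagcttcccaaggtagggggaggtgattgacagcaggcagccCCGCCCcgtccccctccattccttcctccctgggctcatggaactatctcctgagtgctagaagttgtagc
The GC box was in 25 of the 43 windows used for the chains (58.1%) and in 35.7% of all 32851 windows. CCAAT was in 14 of the 43 windows (32.6%, all windows 37.4%) and TATAAA in 5 (11.6%, all windows 13.6%). These are matches of letters on either strand, and nothing was measured at them.

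Across the 12 arrays the chains of a trimer or locus were compared, with a permutation test for each p and Benjamini-Hochberg adjustment over the 12 pairs computed, of which 11 are described. For 6 of the 11 pairs the Pearson correlation passed the threshold. How often pairs of other genes would pass over these arrays was not computed, so the count cannot be credited to a shared trimer or locus. Col4a1 and Col4a2 had r = 0.94 (Spearman rho 0.80, adjusted permutation p = 0.00036 and 0.0089), r = 0.85 without the 2 arrays farthest from the median of Col4a1, and r = 0.92 for deviations from the group means over the 11 db/db arrays. Col4a5 and Col4a6 had r = 0.79 (rho 0.73, adjusted permutation p = 0.0046 and 0.024), 0.61 without the 2 farthest arrays and 0.66 for the deviations. Col4a3 and Col4a4 had r = 0.71 (rho 0.86, adjusted permutation p = 0.017 and 0.0034), 0.83 without the 2 farthest arrays and 0.49 for the deviations. The tests are of the pooled correlations, and the correlations of the deviations were not tested.

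Lama3 and Lamb3, of the same trimer, had r = 0.16 (rho 0.02, adjusted permutation p = 0.76 and 0.96). Lama4 and Lamb1 had r = 0.65 (rho 0.54, adjusted permutation p = 0.038 and 0.13), 0.45 without the 2 farthest arrays, 0.54 for the deviations and 0.77 without anti-IL-17A replicate 1, and these latter values were not tested. The arrays share their groups, and a pooled r over them holds the difference between groups as well as that between arrays.

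**Figure D3:**
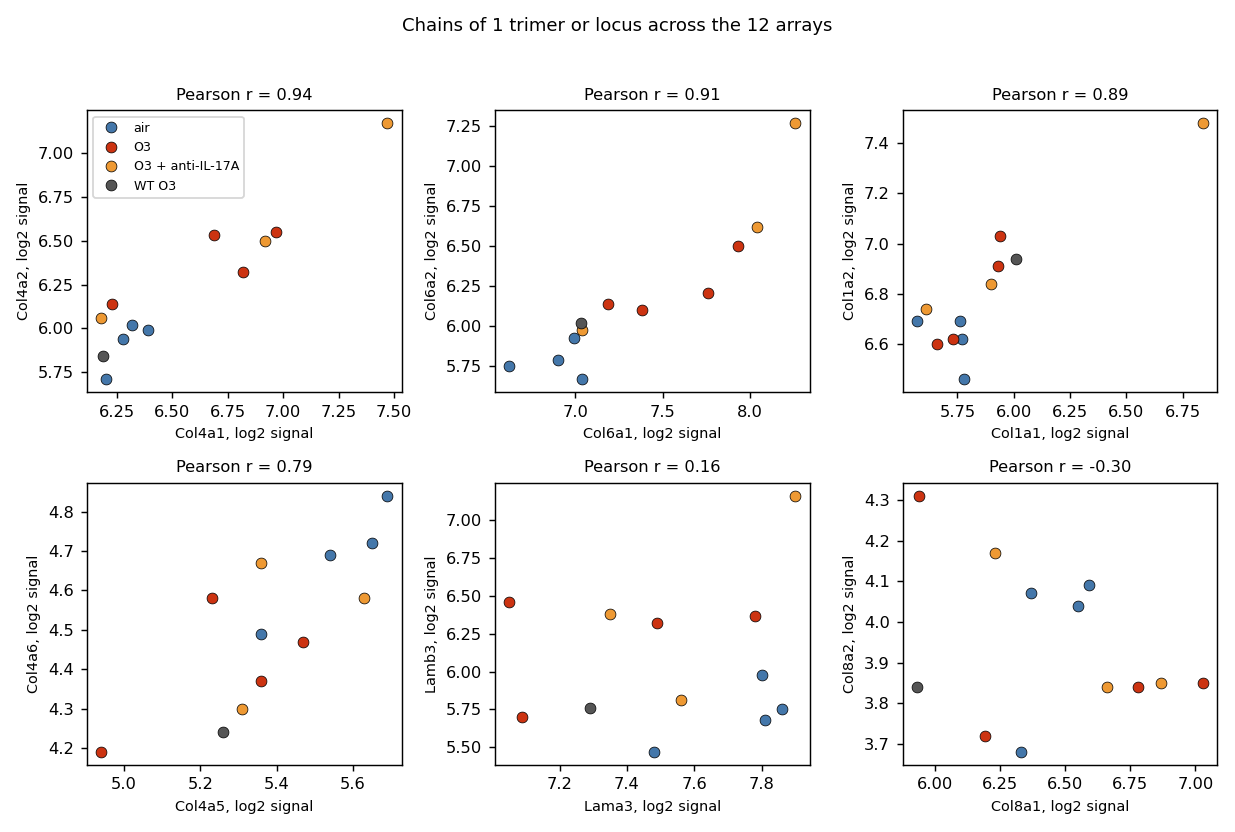
Log2 signals of 6 pairs of chains across the 12 arrays, 1 point per array, coloured by group. Col4a1 and Col4a2 (r = 0.94), Col6a1 and Col6a2 (r = 0.91), Col1a1 and Col1a2 (r = 0.89) and Col4a5 and Col4a6 (r = 0.79) lie along a line, with anti-IL-17A replicate 1 at the top right of the first 3 panels. Lama3 with Lamb3 (r = 0.16) and Col8a1 with Col8a2 (r = -0.30) show no such line.

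**Figure D4:**
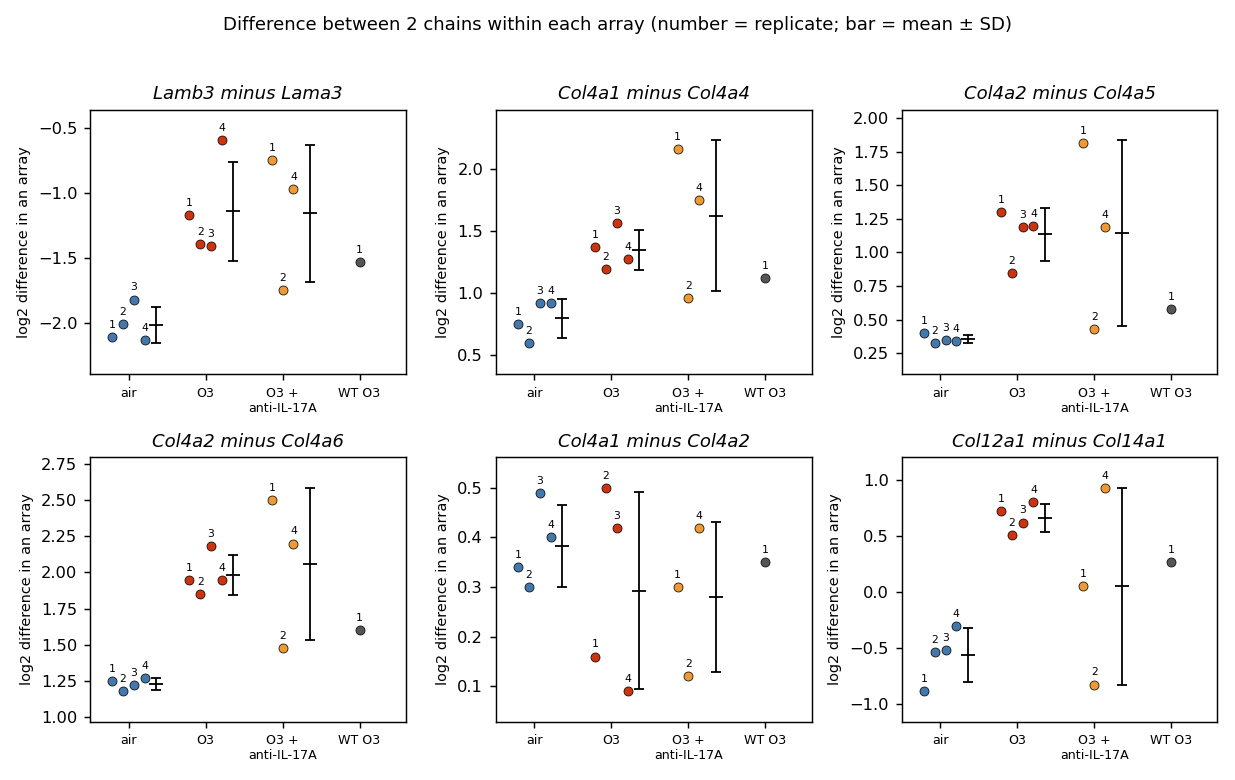
Difference in log2 signal between 2 chains within each array, by group, with the replicate number beside each point and the mean with SD as a bar. Lamb3 minus Lama3 (air -2.12 to -1.82, O3 -1.42 to -0.59), Col4a2 minus Col4a6 (1.18 to 1.27 and 1.85 to 2.18) and Col12a1 minus Col14a1 (-0.89 to -0.31 and 0.51 to 0.80) do not overlap between air and O3, whereas Col4a1 minus Col4a2 does.

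Collagen VI forms beaded microfilaments between basement membranes and fibrils from the products of Col6a1, Col6a2 and a longer chain such as that of Col6a3. Col6a1 had log2 signals of 6.62, 7.04, 6.99 and 6.90 in air and 7.76, 7.38, 7.93 and 7.19 after O3. The lowest O3 array, replicate 4, was above the highest air array. The difference was 0.68 (SE 0.26, adjusted p = 0.23, and 0.044 with only both groups fitted). Col6a2 had 5.75, 5.67, 5.93 and 5.79 in air and 6.21, 6.10, 6.50 and 6.14 after O3, again without overlap, a difference of 0.45 (SE 0.22, adjusted p = 0.38, and 0.033 with only both groups fitted). Col6a3 had 6.23, 6.47, 5.96 and 6.57 in air and 6.36, 6.87, 7.38 and 6.23 after O3. Its O3 arrays spread widely, 2 of them within the air range, and the difference was 0.40 (SE 0.27, adjusted p = 0.53). The chains that can take the place of the longer one, Col6a4 (-0.12) and Col6a6 (-0.26), had means below the lowest array median.

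Col6a1 and Col6a2 had r = 0.91 over the 12 arrays (rho 0.91, adjusted permutation p = 0.00012 and 0.0011), 0.89 without the 2 farthest arrays and 0.85 for deviations from the group means. Col6a1 and Col6a3 had r = 0.45 (rho 0.38, adjusted permutation p = 0.21 and 0.33). Unlike the type IV pairs, Col6a1 (chr10:76725995-76726294) and Col6a2 (chr10:76623355-76623654 for the first of its 2 listed starts) lie on the same strand, minus, with nearest starts 102414 bases apart. Their windows are given for comparison. Capitals mark TGANTCA, the AP-1 site, in Col6a1 and GGGCGG in Col6a2, where 2 of the 3 matches overlap.
Col6a1: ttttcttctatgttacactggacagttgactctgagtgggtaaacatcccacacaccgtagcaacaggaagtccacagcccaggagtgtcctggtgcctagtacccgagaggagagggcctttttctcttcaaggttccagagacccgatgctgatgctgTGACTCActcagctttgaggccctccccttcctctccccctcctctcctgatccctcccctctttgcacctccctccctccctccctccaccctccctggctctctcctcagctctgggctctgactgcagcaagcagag
Col6a2: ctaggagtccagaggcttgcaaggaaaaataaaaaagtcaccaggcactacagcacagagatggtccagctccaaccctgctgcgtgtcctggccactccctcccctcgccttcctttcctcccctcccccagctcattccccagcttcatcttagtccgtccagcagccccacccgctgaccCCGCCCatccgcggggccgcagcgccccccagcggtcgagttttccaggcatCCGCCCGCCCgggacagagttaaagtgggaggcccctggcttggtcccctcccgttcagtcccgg
Col6a1 had the 1 match to TGANTCA among the 43 windows used for the chains (2.33%), where 7.81% of all windows held 1 or more. Chains without a window used here were not searched.

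The fibril-associated collagens coat fibrils without forming their own, and 2 of them moved in opposite directions. Col12a1, whose product links fibrils to their surroundings in dense tissue and in scars, had log2 signals of 6.33, 6.55, 6.64 and 6.69 in air and 7.25, 7.23, 7.58 and 7.41 after O3. The groups were well apart, and the WT O3 array, at 7.29, was among the O3 arrays. The difference was 0.81 (SE 0.21, adjusted p = 0.097), a 1.76-fold higher signal, with an adjusted p of 0.0046 when only both groups were fitted. It passed in 10 of the 28 alternatives (adjusted p from 0.0046 to 0.26). Anti-IL-17A replicates 1 and 2 had 6.72 and 6.58, near the air arrays, and replicate 4 had 7.66, the highest of the 12. Col12a1 and Col5a2 were the 2 chains for which anti-IL-17A replicate 1 lay below all O3 arrays (3.85%, against 25.5% of all genes).

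Col14a1, a related collagen of mature fibrils, had 7.22, 7.09, 7.16 and 7.0 in air and 6.53, 6.72, 6.96 and 6.61 after O3. No O3 array reached the lowest air array, and replicate 3 came closest. The difference was -0.41 (SE 0.16, adjusted p = 0.25, and 0.046 with only both groups fitted). The WT array (7.02) and anti-IL-17A replicate 2 (7.41) were at or above the air arrays' lower end. Col9a3, one of the chains of type IX collagen, had 5.01, 5.23, 4.98 and 5.09 in air and 4.95, 4.70, 4.68 and 4.70 after O3, without overlap, a difference of -0.32 (SE 0.10, adjusted p = 0.16, and 0.068 with only both groups fitted). The platform annotation ties the probe set of Col9a3 to Tcfl5 as well. Among the 6 other fibril-associated chains the differences ran from -0.15 for Col22a1 to 0.00 for Col20a1, and 5 of these 9 chains had means below the lowest array median.

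Fibrillar collagen differed little between O3 and air. Col1a1 and Col1a2, the chains of type I collagen, had differences of 0.10 (SE 0.22, 95% interval -0.39 to 0.58) and 0.18 (SE 0.16, interval -0.19 to 0.54). Col3a1, the single chain of type III collagen, differed by 0.17 (SE 0.23, interval -0.33 to 0.67). The signals of Col1a1 were 5.57, 5.76, 5.77 and 5.78 in air and 5.66, 5.94, 5.93 and 5.73 after O3, so that the groups overlapped. Col5a2 (0.30, SE 0.15, adjusted p = 0.39) and Col5a1 (-0.29, SE 0.19, adjusted p = 0.51), partners in type V collagen, had opposite signs and no correlation across the arrays (r = -0.03). None of the 11 passed the threshold in either fit, and 5 of them, mostly chains of cartilage and developing tissue, had means below the lowest array median. The intervals above leave room for differences of up to about the size seen for Col6a1. Col1a1 and Col1a2 had r = 0.89 over the 12 arrays (rho 0.66, adjusted permutation p = 0.0031 and 0.048), which was 0.67 without anti-IL-17A replicate 1, where both were highest (6.84 and 7.48).

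Of the network, anchoring and transmembrane collagens none passed the threshold in either fit. Col23a1, a transmembrane collagen, differed by -0.32 (SE 0.13, adjusted p = 0.28) and Col10a1, the collagen of growth cartilage, by -0.31 (SE 0.18, adjusted p = 0.45), the latter with a mean below the lowest array median. Col8a1, a short-chain collagen of vessel walls, differed by 0.03 (SE 0.23), with O3 arrays from 5.94 to 7.03 on either side of the air arrays. Col8a1 and Col8a2 were not correlated (r = -0.30). Col13a1 differed by 0.12, Col17a1, of hemidesmosomes, by -0.11, Col7a1, of the anchoring fibrils below them, by -0.10, and Col28a1 by 0.11. The probe set of Col7a1 is also tied to a microRNA gene, Mir711.

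The antibody was compared with the isotype among O3-exposed db/db mice. None of the 52 chains passed the threshold, and of the 21759 genes 0.0% did, here and in every alternative run, and at an unadjusted p under 0.05 there was 1 chain (Col5a3, 0.29), or 1.92%, against 4.60% of all genes (1002 genes). No chain was without overlap between the 2 groups, where 2.63% of all genes lay higher and 1.42% lower with no overlap. The differences ran from -0.38 for Col12a1 (SE 0.23, interval -0.88 to 0.12) to 0.46 for Lamb2 (SE 0.30, interval -0.20 to 1.12), and 43 of 52 were above 0 (82.7%), against 58.4% of all genes. Over the chains the median difference was 0.14, against 0.04 for all genes.

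The 3 anti-IL-17A arrays had little in common, and the direction of several chains depended on which of them were used. Replicate 1 was the highest of the 12 arrays for 33 of the 52 chains (63.5%), against 33.4% of all genes, among them Lama5 (6.98), Lamc1 (9.60), Lamb3 (7.16), Lamb2 (7.67), Col4a1 (7.47), Col4a2 (7.17), Col6a1 (8.26) and Col6a2 (7.27). Replicate 2 lay within the air range for 24 chains (46.2%), against 54.7% of all genes, and below all O3 arrays for 11 (21.2%), against 20.1%. Replicate 4 lay within the range of the air arrays for 12 chains (23.1%), against 42.2% of all genes, and had log2 signals of 8.04 for Col6a1 and 6.50 for Col4a2. Without replicate 1 the difference of antibody and isotype was -0.16 for Lama5 and -0.06 for Col1a1, in place of 0.33 and 0.30. In the fit without replicate 2, 9 chains had an unadjusted p under 0.05, all higher with the antibody (17.3%, against 8.96% of all genes), and none passed after adjustment.

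**Figure D5:**
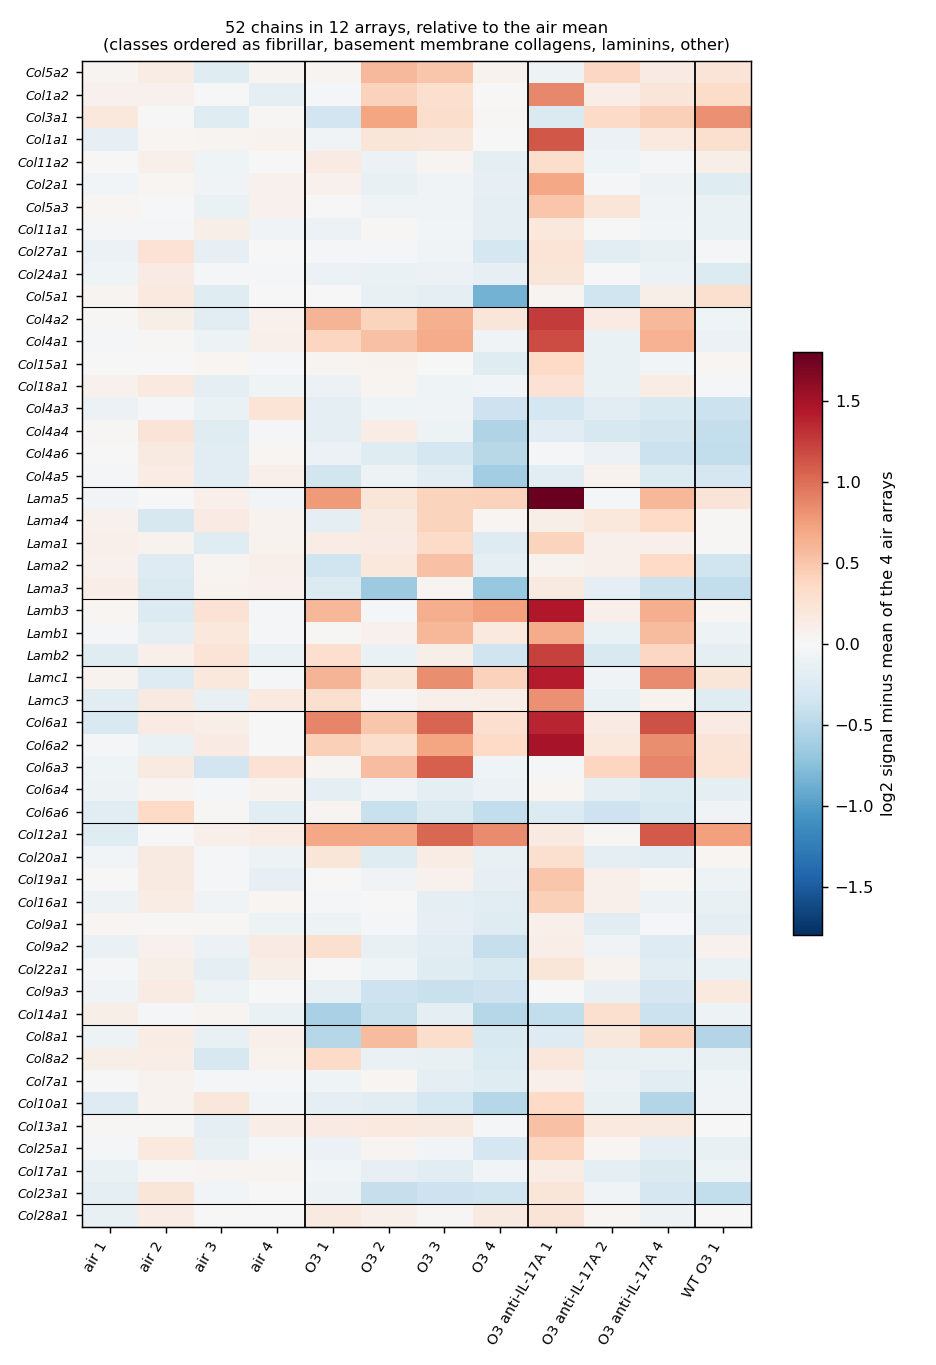
Log2 signal of each of 52 chains (rows, by class) in each of the 12 arrays (columns, by group) minus the mean of the 4 air arrays, on a colour scale from -1.8 to 1.8. The O3 arrays and anti-IL-17A replicates 1 and 4 share the red cells of Col6a1, Col6a2, Col4a2 and Lamc1, anti-IL-17A replicate 2 is pale in most rows, and anti-IL-17A replicate 1 is the highest of the 12 arrays in 33 rows.

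Mice given the antibody and exposed to O3 were also set against air, a comparison that shares its air arrays with the first and in which exposure and antibody differ together. In the 12-array fit none of the 52 chains passed, and none of all genes (3618 had an unadjusted p under 0.05, or 16.6%, with 9 chains, or 17.3%). The differences were 0.89 for Col6a1 (SE 0.28, adjusted p = 0.21), 0.84 for Col6a2 (SE 0.24, adjusted p = 0.19) and 0.66 for Col4a2 (SE 0.22, adjusted p = 0.23), beside 0.68, 0.45 and 0.47 for O3 with the isotype. All 3 antibody arrays were above all air arrays for 6 chains (11.5%, against 7.10% of all genes), Col6a1, Col6a2, Col4a2, Col1a2, Col13a1 and Lama1. For Col6a1 (7.04) and Lama1 (3.87, a dim chain) replicate 2 equalled the highest air array at the precision printed here. One array decided the count of calls. Without anti-IL-17A replicate 2, 8 chains rose, or 15.4%, against 8.38% of all genes, namely Col6a1 (1.26, adjusted p = 0.0074), Lama5 (1.19), Col6a2 (1.16), Lamc1 (1.13), Lamb3 (1.05), Col4a2 (0.92), Col4a1 (0.90) and Lamb1 (0.62).

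The single WT array exposed to O3 was placed against the db/db O3 arrays. In limma the spread of this lone array is taken from the other groups. None of the chains passed, and none of all genes did (713 with an unadjusted p under 0.05, or 3.28%, among them 1 chain, Col9a3). The WT array lay below all 4 db/db O3 arrays for 14 chains (26.9%, against 22.1% of all genes) and above them for 7 (13.5%, against 17.7%). Those below included Col4a1 (6.19), Col4a2 (5.84), Col6a1 (7.03) and Col6a2 (6.02), and those above included Col3a1 (6.68), Col5a1 (5.37) and Col1a1 (6.01). The largest differences were 0.65 for Col3a1 (interval -0.14 to 1.44) and -0.56 for Col8a1 (interval -1.36 to 0.24). For Col12a1 the WT array was nonetheless above all air arrays of db/db mice, and for Col4a2 it was within them. With 1 array this describes that array and not the genotype.

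The genes that fold, cut, crosslink and break down collagen were read from 7 lists. Over all genes 0.597% passed as higher and 0.46% as lower between O3 and air in the 12-array fit, and 4.89% and 2.96% in the fit of both groups, and each list's count is to be read beside these shares. Of 21 genes of procollagen folding and modification none passed between O3 and air in the 12-array fit, and the median difference was 0.22. P4ha3, a prolyl hydroxylase subunit, had the smallest p, with log2 signals of 4.66 to 5.09 in air and 5.85 to 7.65 after O3 and a difference of 1.87 (SE 0.44, adjusted p = 0.073). In the fit of both groups P4ha3 rose (adjusted p = 0.013) and P4ha1, the widely used subunit, fell (-0.36, adjusted p = 0.046), while Fkbp10, a collagen chaperone, had a difference of 0.66 (adjusted p = 0.052). Of 15 genes of cleavage and crosslinking none passed in the 12-array fit (median difference 0.37). In the fit of both groups 3 rose, the lysyl oxidases Lox (0.80, adjusted p = 0.0090) and Loxl1 (0.74, adjusted p = 0.0098) and the N-propeptidase Adamts2 (0.78, adjusted p = 0.033). Each of these 3 had all O3 arrays above all air arrays, as did 8.78% of all genes.

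Of 12 genes of collagen breakdown 1 rose in the 12-array fit, Timp1, the inhibitor of metalloproteinases. Its log2 signal was 4.54 to 7.93 in air and 8.39 to 9.36 after O3, a difference of 3.38 (SE 0.67, adjusted p = 0.046). With only both groups fitted Mmp14 (1.13, adjusted p = 0.0098), Mmp2 (1.06, adjusted p = 0.021) and Ctsk (0.95, adjusted p = 0.036), which encode collagen-cleaving enzymes, rose as well. Of 15 genes of TGF-beta signalling, the pathway best known for inducing collagen, 1 rose in the 12-array fit (median difference 0.15). This was Tgfb2, a ligand, with log2 signals of 7.28 to 7.35 in air and 7.91 to 8.36 after O3 (0.77, SE 0.13, adjusted p = 0.038). In the fit of both groups Tgfbr2, a receptor, rose as well (0.99, adjusted p = 0.013).

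Of 13 other basement membrane components, 13 fibril-binding proteoglycans and glycoproteins and 16 measured receptors none passed in the 12-array fit, with median differences of -0.02, 0.15 and 0.02. In the fit of both groups Frem2, a basement membrane protein, fell (-0.43, adjusted p = 0.016), and Smoc2 had a difference of 0.59 (adjusted p = 0.10). In that fit the matricellular protein gene Thbs1 rose (1.59, adjusted p = 0.0025) and Ogn, a small proteoglycan gene, fell (-0.60, adjusted p = 0.036). The laminin-binding integrins Itga3 (0.99, adjusted p = 0.027) and Itga7 (0.67, adjusted p = 0.0074) rose. The proteins that join laminin and type IV collagen networks, nidogens and perlecan, are in the first of these lists, and none of them passed in either fit.

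Some markers of cell types also differed between O3 and air. Their counts too stand beside 4.89% of all genes higher and 2.96% lower in the fit of both groups. For markers, the median of all genes is the lowest array median over the genes measured. The cutoff used for the chains was instead taken over all probe sets. Of 7 markers of ciliated and club cells, Scgb3a2 fell in the 12-array fit and 4 fell in the fit of both groups, and the mean log2 signal of the list was 8.71 to 8.87 in air, 7.70 to 7.88 after O3, 7.48 to 8.57 with anti-IL-17A and 8.24 in the WT array, with 1 marker below the median of all genes. Of 8 markers of airway basal and injured epithelium none passed in the 12-array fit and 3 rose in the fit of both groups, Krt8, Krt19 and Cldn4, and the list had means of 5.72 to 6.97 in air, 6.37 to 7.62 after O3, 6.13 to 7.21 with anti-IL-17A and 6.86 in the WT array, with 2 markers below the median. Krt5, of basal cells, had 8.16 in air replicate 3 and 8.36 in O3 replicate 4, which were also high in Ucp1, and at most 5.82 elsewhere. The 4 that fell in the fit of both groups were Dnahc5, Ccdc39, Scgb3a2 and Cyp2f2, of the first of these lists. The 9 markers of fibroblasts had means of 8.94 to 9.30 in air and 8.81 to 9.26 after O3, with 1 that fell in the fit of both groups (Inmt), and the 9 of smooth muscle and pericytes 7.10 to 7.53 and 7.33 to 7.72, with Tagln the 1 marker that rose in the fit of both groups. The 8 endothelial markers had means of 9.05 to 9.14 in air and 8.75 to 9.06 after O3 (Tek fell in the fit of both groups), the 7 of alveolar type 1 cells 9.65 to 9.75 and 9.38 to 9.58 (Rtkn2 fell), and the 6 of mesothelium 7.43 to 8.23 and 7.39 to 7.99 (Gpm6a fell). None of the markers of adipocytes, skeletal muscle, cardiac muscle or neutrophils and macrophages passed in either fit, although the means of the skeletal muscle list ran from 4.51 to 7.58 in air and 4.34 to 8.01 after O3 and those of the adipocyte list from 5.25 to 7.34 and 5.14 to 6.89. Of 9 cartilage markers 8 were below the median of all genes, with means of 4.18 to 4.35 in air and 3.98 to 4.07 after O3 (Chad fell in the fit of both groups). Their part in the differences of the chains was not tested.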

How the data were processed

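Per the labels, lung RNA was read on 12 Affymetrix mouse gene arrays. The authors deposited log2 RMA signals (background correction, quantile normalization, summary per probe set) made with oligo and RMA, and limma statistics (versions not given in the sources used here). Both deposited tables hold the same log2 values. The columns with the authors' own fold changes and p-values were not used. Of 35556 probe sets, 25254 carry a symbol, giving 21759 genes (probe set with the highest mean). limma 3.58.1 (R 4.3.3; lmFit, eBayes) was fitted to 12 arrays, 1 mean per group, 8 residual df, two-sided, Benjamini-Hochberg over 21759 genes. Correlations used 100000 permutations (numpy 2.4.6, with ranks from scipy 1.17.1). The procedure was tested on simulated data with the spread of these genes. For O3 minus air it called 34% of 50 genes changed by 0.5 on the log2 scale. Of 50 genes changed by 1.0 it called 74%, and of 21559 unchanged genes it called 11. Each simulated gene had 1 spread in all groups, so no simulated array stood apart as anti-IL-17A replicate 1 did. A difference of 0.5 thus often did not pass.

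One chain that the rule matches and 1 gene of the TGF-beta list are not reported here. Members, pairs and lists were chosen with earlier results of these data known. Chains named are those called in any comparison, the 3 highest of each class, the largest differences and members of the pairs; list genes are those called or, with none, the 2 with the smallest p. Other chains and markers were named after their values were seen. Older symbols were matched through RefSeq synonyms. Alternatives were quantile normalization, subtraction of array medians, leaving out the dimmest 40%, the mean of all probe sets, probe sets tied to 1 gene, trended robust variance, fits of only the groups set against each other, a block for the replicate number, arrays left out, a threshold of 0.1 and the other deposited table. The number of arrays limits precision.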

Additional observations from a re-analysis of the deposited data

Results flagged for a closer look

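In 10 of 104 groups of 4 arrays 1 array lay far from the other 3 (gap over range above Dixon's 95% critical value), where chance gives about 1 in 20. After O3 these were Col13a1 in replicate 4 (4.98, others 5.15 to 5.18), Col27a1 in replicate 4 (4.06, others 4.32 to 4.35) and Col9a3 in replicate 1 (4.95, others 4.68 to 4.70). In air they were Col17a1 in replicate 1 (4.69, others 4.84 to 4.86), Col1a1 in replicate 1 (5.57, others 5.76 to 5.78), Col8a2 in replicate 3 (3.68, others 4.04 to 4.09), Lama1 in replicate 3 (3.57, others 3.84 to 3.87) and Col9a1 in replicate 4 (4.07, others 4.18 to 4.19). Air replicate 2 was low for Lama2 (7.76, others 8.04 to 8.08) and Lama3 (7.48, others 7.80 to 7.86).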

How the results depend on the processing

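Between O3 and air the number of chains called was 0 in the 12-array fit, 6 with only both groups fitted (1706 genes in place of 230), 0 with anti-IL-17A replicate 1 left out (834 genes) and 1 at an adjusted p under 0.1 (660 genes, Col12a1). It was 1 without anti-IL-17A replicate 2 (904 genes, chosen after seeing the data). With 1 air or O3 array left out it was 0 in the 12-array fit (0 to 14 genes) and 1 to 7 with only both groups fitted, also chosen after seeing the data (7 without O3 replicate 2, 5 without O3 replicate 4, 757 to 2698 genes). In those 8 smaller fits Col12a1 was called each time. For O3 with the antibody minus air it was 0 to 8 with 1 array left out of the 12-array fit (8 without anti-IL-17A replicate 2, 2756 genes) and 0 to 6 with only both groups fitted (0 to 1400 genes). Without the 3 arrays high in Ucp1 it was 0, with 1 gene called between O3 and air. The other alternatives gave 0 chains in all 4 comparisons. The 13 chains called or among the largest differences kept the direction of O3 minus air in every alternative. They were chosen by their values in these same arrays, so a kept direction was close to given.

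With 1 array left out, the antibody minus the isotype ranged from -0.06 to 0.56 for Col1a1, -0.22 to 0.00 for Col4a4 and -0.16 to 0.73 for Lama5. Direction changed for the antibody minus the isotype in Col1a1 (-0.06 without anti-IL-17A replicate 1, -0.09 without the 3 arrays high in Ucp1), Lama5 (-0.16 and -0.18), Lamb2 (-0.05 without those 3 arrays) and Col4a4 (0.00 without O3 replicate 2). The correlation of Col5a1 and Col5a2 was 0.03 after quantile normalization, 0.08 with array medians subtracted and 0.02 without anti-IL-17A replicate 1. Without that array Col1a1 and Col3a1 had r = 0.63 in place of -0.09 and Lama3 and Lamb3 -0.18 in place of 0.16. Of the 11 pairs described, 5 to 8 passed over the alternatives, against 6.

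With the replicate number as a block 238 genes and 0 chains were called between O3 and air. Same-numbered arrays did not deviate together throughout (r from -0.41 to 0.45 across genes). With 3 or 4 arrays a group, this cannot tell whether the numbers pair the arrays. For all other changes above the cause was not tested. Precision is limited by 1 to 4 arrays a group.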
